A study of Mus musculus with 14 samples.

Results

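The microRNA (miRNA) content of bone marrow, the blood-forming tissue, was compared with that of hypothalamus, the brain region that controls hormone release, feeding and body temperature. The comparison rests on 8 of the 14 arrays of the study: the 4 bone marrow arrays and the 4 hypothalamus arrays whose pretreatment, route and dose were the same in both tissues. All RNA came from male C57BL/6 mice aged 6-8 week. The labels give 3 mice per group and state pooling of 3 animals for bone marrow, and the protocol shared by all samples says that RNA was pooled. The 4 matched conditions were phosphate-buffered saline (PBS, the vehicle) or amifostine at 10 mg/kg, a thiol prodrug used as a radioprotectant, both injected i.p., each followed by 0 or 8 Gy of gamma radiation. Amifostine was given 0.5 h before irradiation and tissue was taken 12 h after it. Each condition had 1 array per tissue, so the 4 arrays of a tissue differ in treatment as well as in animals, and condition was the block that paired the tissues. The pairing makes the test one of a tissue difference common to the 4 conditions. The labels do not name which cells a dissected hypothalamus or a marrow preparation held.

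A miRNA is a short RNA that guides an Argonaute protein to messenger RNAs, mainly through its seed, the bases 2 to 8 at its 5′ end, and so lowers their translation and stability. Genes for miRNAs often lie in clusters that are transcribed together, and families of paralogs share a seed while they are transcribed from different loci. Each precursor hairpin can give a mature strand from its 5′ arm (5p) and from its 3′ arm (3p). Neurons are known for miR-124 and miR-9, red cell precursors for miR-451a and miR-144, and myeloid cells for miR-223 and miR-142.

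The mature sequences on which the tissue difference turned are given here from RefSeq (GRCm38.p6), with the seed in capitals. The first set is of miRNAs that stood at the top of one tissue.
miR-9-5p: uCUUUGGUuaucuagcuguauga
miR-127-3p: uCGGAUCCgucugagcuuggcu
miR-7a-5p: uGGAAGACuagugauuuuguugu
miR-223-3p: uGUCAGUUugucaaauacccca
miR-142-3p: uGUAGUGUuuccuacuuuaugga
miR-451a: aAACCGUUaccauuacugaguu
miR-144-3p: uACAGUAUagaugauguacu

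The second set is of paralogs that share a seed and yet differed between the tissues by unequal amounts, or in opposite directions.
miR-15b-5p: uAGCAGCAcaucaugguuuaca
miR-16-5p: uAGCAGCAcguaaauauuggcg
miR-195a-5p: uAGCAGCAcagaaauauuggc
miR-497-5p: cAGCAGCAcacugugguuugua
miR-130a-3p: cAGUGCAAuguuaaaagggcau
miR-130b-3p: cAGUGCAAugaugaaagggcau
let-7a-5p: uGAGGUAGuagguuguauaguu
let-7e-5p: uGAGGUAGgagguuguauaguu
let-7i-5p: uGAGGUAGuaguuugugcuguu

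The third set is of paralogs from separate chromosomes that were all higher in the same tissue. The 5 with the seed AAAGUGC were higher in bone marrow, and the others were higher in hypothalamus.
miR-17-5p: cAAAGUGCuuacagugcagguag
miR-20a-5p: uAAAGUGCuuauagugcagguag
miR-20b-5p: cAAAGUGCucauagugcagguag
miR-93-5p: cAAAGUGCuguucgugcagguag
miR-106b-5p: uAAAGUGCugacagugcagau
miR-125a-5p: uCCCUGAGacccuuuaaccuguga
miR-125b-5p: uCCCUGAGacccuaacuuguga
miR-99a-5p: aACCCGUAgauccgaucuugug
miR-99b-5p: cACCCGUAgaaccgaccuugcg
miR-100-5p: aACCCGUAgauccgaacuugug

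The arrays carried probes for 1247 mouse miRNAs. The scanner software called 332 to 403 of them detected on the bone marrow arrays and 478 to 582 on the hypothalamus arrays, and no probe was saturated. Levels below are log2 of a miRNA's fluorescence over the 75th percentile of its array, taken over the 277 miRNAs detected on all 8 arrays, so that 0 is the level of that percentile. Values at or below -5.61 were set to that floor. Levels of different miRNAs are not comparable, because each probe has its own brightness. Differences are bone marrow minus hypothalamus, with the standard error of the paired limma fit over 4 pairs, and a miRNA was called at an adjusted p under 0.05.

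Marker miRNAs of both tissues were present where the labels place them. Of 25 neuronal miRNAs, 24 were detected on each hypothalamus array and 4 or 5 on each bone marrow array, and their summed scaled signal was 72.6 to 107 times the reference percentile in hypothalamus and 0.501 to 0.659 in bone marrow. All 6 erythroid miRNAs on the array were detected on each bone marrow array, where they summed to 87.8 to 305, and 2 of 6 on each hypothalamus array, where they summed to 2.05 to 2.72. Each array thus held the marker pattern of its own label.

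One array stood apart from the others of its tissue in markers of other cells. On the hypothalamus array of amifostine at 0 Gy, all 8 miRNAs of a pituitary and epithelial list were detected and summed to 2.275, against 6, 3 and 3 of 8 on the other hypothalamus arrays with sums of 0.26, 0.14 and 0.104, and 1 or 2 of 8 in bone marrow with sums of 0.063 to 0.152. The summed signal of the muscle list was 1.033 on that array, against 0.27 to 0.429 on the other hypothalamus arrays and 0.193 to 0.391 in bone marrow. Its neuronal sum, 106.784, lay within the range of the other hypothalamus arrays. The part these cells have in the results was not tested. Without this pair of arrays 316 miRNAs were called in place of the 297 below, and 275 were called in both fits. In bulk RNA, fewer cells of a type and less RNA per cell cannot be told apart.

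Of 530 miRNAs tested, 297 differed between the tissues (56.0%; limma, Benjamini-Hochberg): 84 were higher in bone marrow (15.8%) and 213 were higher in hypothalamus (40.2%). All 297 had the same sign in each of the 4 conditions, and in 307 of the 530 (57.9%) the 4 arrays of one tissue did not overlap those of the other. Among the 277 miRNAs detected on all 8 arrays, 65 were higher in bone marrow (23.5%) and 71 in hypothalamus (25.6%). In 52 of these 136 (49.1% of the 277 were called in all) the difference was over 4-fold, 25 of them toward bone marrow and 27 toward hypothalamus. The median difference was -0.379 over all tested miRNAs and 0.047 over those detected on all 8 arrays. The surplus toward hypothalamus thus lay among the miRNAs that bone marrow did not give on every array.

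**Figure D1:**
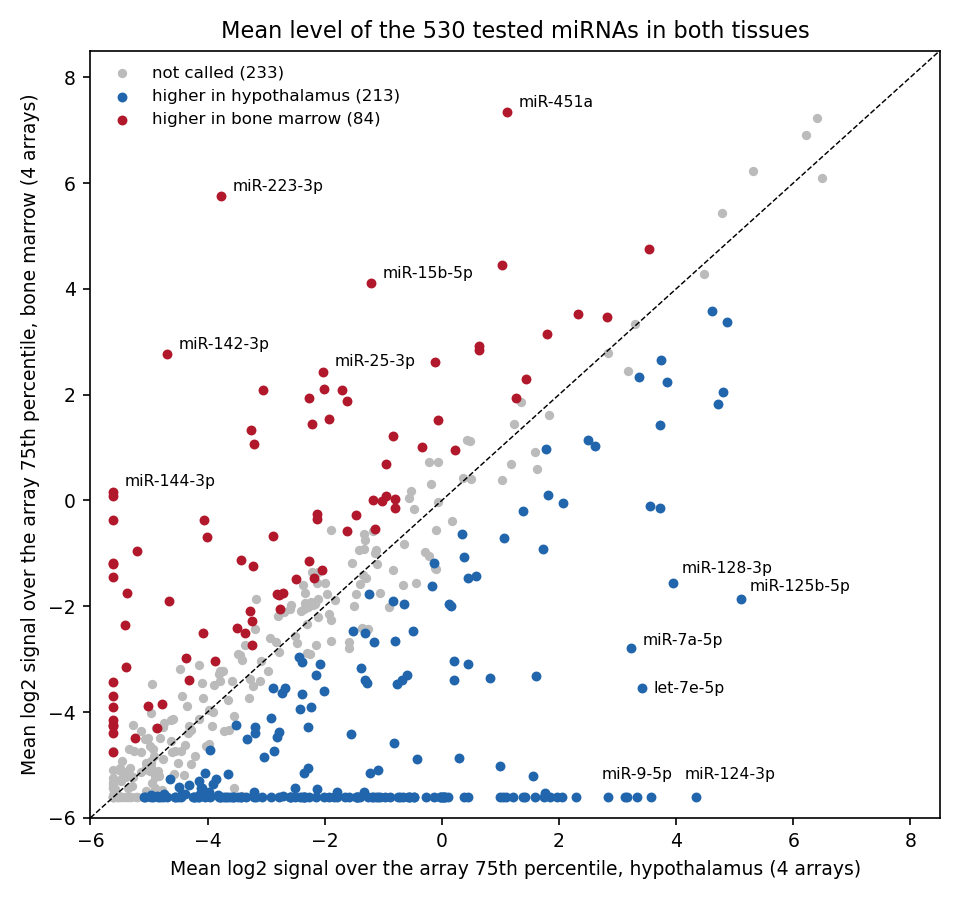
Mean log2 level of each of the 530 tested miRNAs in hypothalamus (x axis, 4 arrays) and in bone marrow (y axis, 4 arrays), relative to the array's 75th percentile. Red points were called higher in bone marrow (84), blue points higher in hypothalamus (213) and grey points were not called, the dashed line marks equal levels, and the points along the lower and left edges lie at the floor of -5.61.

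The split between directions depended on how the arrays were scaled. Bone marrow held 28.3% of the calls here, 64.4% when arrays were scaled to the 75th percentile of all miRNAs, 58.8% after quantile normalization, 52.4% in the authors' deposited value table, 46.0% with the normexp background, 19.9% with 25 rank-stable miRNAs as the reference and 14.1% without scaling. These scalings moved the median of the 277 shared miRNAs from 0.047 to 1.391, 1.070, 1.340, 0.268, -0.279 and -0.546 in that order. Where the direction of a called miRNA below turns under one of them, it is stated beside the value. For a miRNA not called here, a turn is stated only where the alternative called it.

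**Figure D2:**
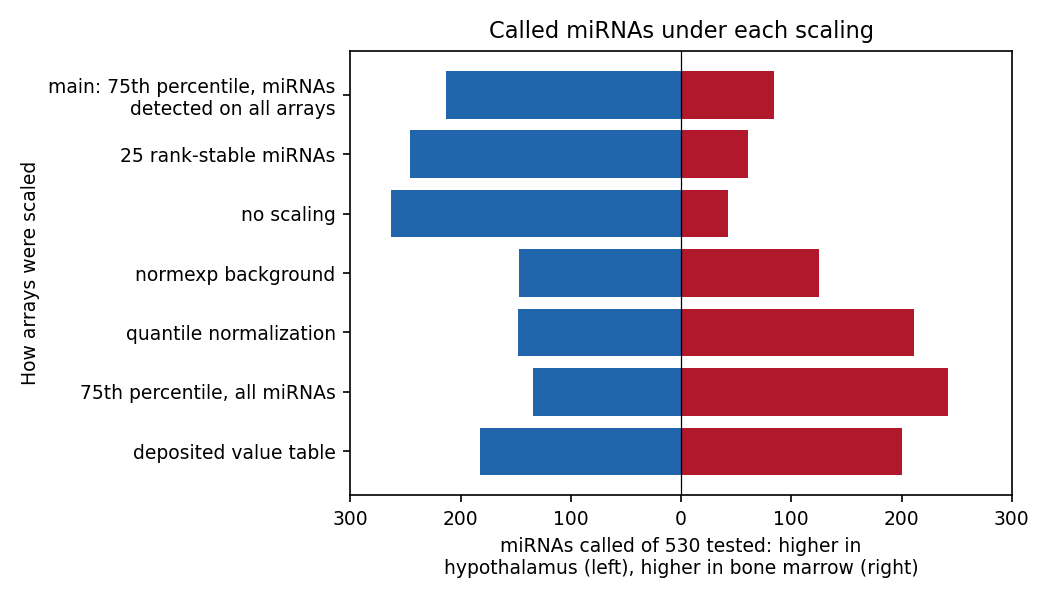
Number of the 530 tested miRNAs called higher in hypothalamus (blue bars, to the left) and higher in bone marrow (red bars, to the right) under each way of scaling the arrays. The main scaling gave 213 and 84, and the 75th percentile over all miRNAs gave 134 and 242.

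Neuronal miRNAs made up the strongest group on the hypothalamus side. All 24 tested members of the neuronal list were called higher in hypothalamus, beside 40.2% of all tested miRNAs. Their median difference was -5.11 beside -0.379 for all tested miRNAs. Of these 24, 19 were detected on every hypothalamus array and on no bone marrow array, and 3 (miR-128-3p, miR-149-5p and miR-874-3p) on all 8 arrays. The test asked for detection on at least 4 arrays, so those 19 entered it through hypothalamus alone. They could hardly be called higher in bone marrow. Where one tissue detected a miRNA on no array, its difference is a lower bound in size, set by the floor.

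miR-124-3p, which represses non-neuronal transcripts in neurons, stood at 4.02 and 4.61 in hypothalamus after PBS at 0 and 8 Gy and at 4.65 and 4.11 after amifostine at 0 and 8 Gy. It was not detected on any bone marrow array, so it was at least 992-fold higher in hypothalamus. The 4 hypothalamus arrays lay close together and none approached the bone marrow level.

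The miR-9 hairpins lie on chromosomes 3, 7 and 13, and both of their arms, which act in neural progenitors and neurons, were present in hypothalamus. miR-9-5p read 3.16 and 3.52 after PBS at 0 and 8 Gy and 3.61 and 3.04 after amifostine at 0 and 8 Gy, and no bone marrow array detected it. The lower bounds were 492-fold for miR-9-5p and 582-fold for miR-9-3p. The locus on chromosome 3 (GRCm38.p6 chr3:88215171-88215686) lies within the span of the long non-coding RNA gene Gm3764.

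Other members were likewise bounded by the bone marrow floor. miR-129-2-3p was at least 426.5-fold and miR-132-3p, which neuronal activity induces, at least 238-fold higher in hypothalamus. miR-137-3p, a regulator of neuronal maturation, was at least 164-fold, and miR-138-5p, found in dendrites, at least 100.4-fold higher. miR-218-5p, known from motor neurons, read 1.29 to 1.84 on the hypothalamus arrays and was not detected in bone marrow.

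miR-128-3p, a brain-enriched miRNA that restrains neuronal excitability, could be measured in both tissues. Its level was 3.55 and 4.43 in hypothalamus after PBS at 0 and 8 Gy and 4.20 and 3.61 after amifostine, against -1.10 and -1.72, and -1.64 and -1.81, in bone marrow. The ranges were far apart, and the difference was -5.51 ± 0.28 (limma adjusted p = 8.45e-05). Its genes lie within the spans of R3hdm1 on chromosome 1 and Arpp21 on chromosome 9.

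The neuroendocrine list was led by the miR-7 family, abundant in hypothalamic and pituitary hormone cells. miR-7a-5p stood at 3.29 and 3.28 in hypothalamus after PBS at 0 and 8 Gy and at 3.38 and 2.96 after amifostine. In bone marrow it stood at -2.46 and -2.83 after PBS and at -2.85 and -2.98 after amifostine. The tissues did not overlap, and the difference was -6.01 ± 0.13 (limma adjusted p = 8.89e-06). miR-7b-5p, which differs from miR-7a-5p at 1 of 23 positions and comes from chromosome 17, was not detected in bone marrow and was at least 176-fold higher in hypothalamus. The fourth member, miR-375-3p of endocrine cells, read -5.34 to -4.37 in hypothalamus, was not detected in bone marrow and did not pass (limma adjusted p = 0.0611).

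All 3 oligodendrocyte miRNAs on the array were higher in hypothalamus, beside 40.2% of all tested miRNAs. miR-338-3p, which promotes oligodendrocyte maturation, stood at 0.43 and 0.97 after PBS at 0 and 8 Gy and at 1.14 and 0.76 after amifostine in hypothalamus, against -3.48 and -2.69, and -4.21 and -3.07, in bone marrow. The difference was -4.19 ± 0.33 (limma adjusted p = 0.000398). Its partner in that role, miR-219-5p, read -0.71 to -0.24 in hypothalamus and -5.41 to -4.13 in bone marrow, where 3 of 4 arrays detected it, a difference of -4.46 ± 0.27 (limma adjusted p = 0.000159).

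Markers of the lining of the ventricles, which borders the hypothalamus, were present as well. Of 8 choroid plexus and ependyma miRNAs, 5 or 6 were detected on each hypothalamus array and none in bone marrow, and their summed signal was 4.16 to 5.85 in hypothalamus. miR-204-5p, a miRNA of choroid plexus epithelium encoded within the span of Trpm3, was at least 191-fold higher in hypothalamus. miR-34b-5p and miR-34c-5p, of ciliated cells, were at least 21.6-fold and 21.3-fold higher. How far these cells contribute to the hypothalamus profile was not tested.

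**Figure D3:**
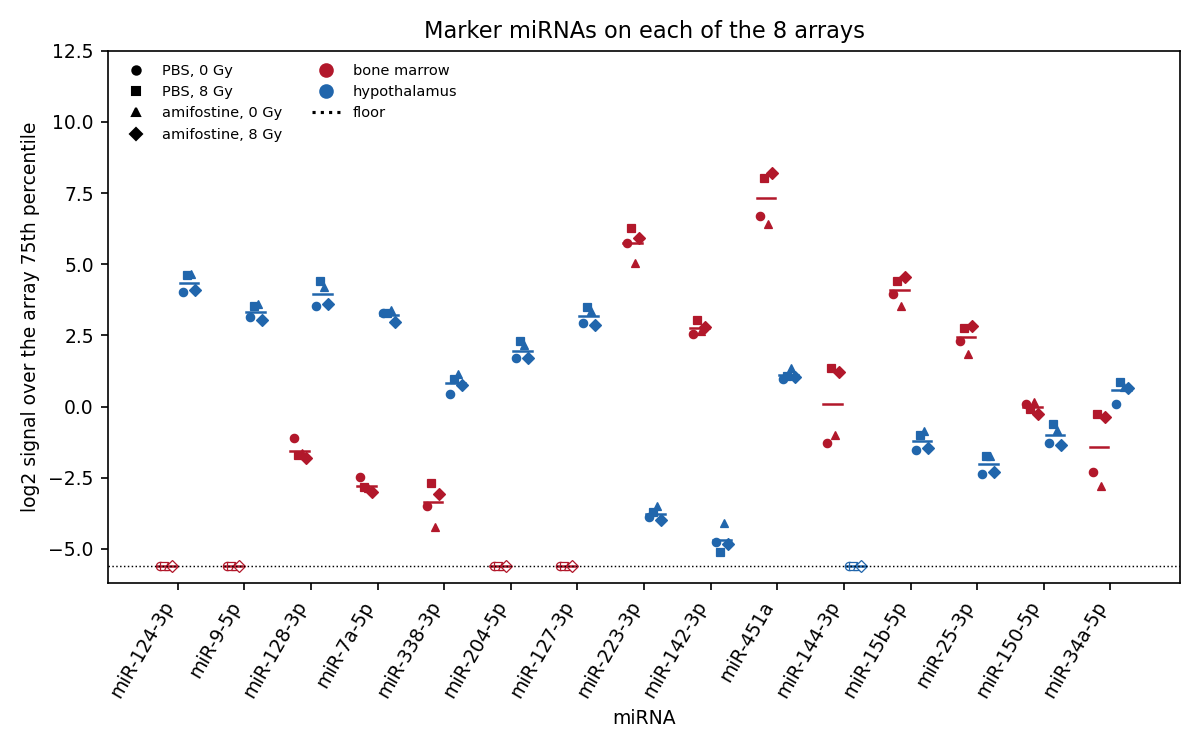
Log2 level, relative to the array's 75th percentile, of 15 marker miRNAs on the 4 bone marrow arrays (red) and the 4 hypothalamus arrays (blue), with a symbol per condition and a bar at the mean. Open symbols on the dotted line at -5.61 mark a tissue in which no array detected the miRNA, and miR-150-5p is the marker with the least separation.

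The imprinted Dlk1-Dio3 region of chromosome 12 supplied more of the hypothalamus-restricted miRNAs than any other list. Its miRNAs are expressed from the maternal chromosome, widely in brain and placenta. Of 56 members on the array, 48 could be tested. Of these, 42 were called higher in hypothalamus, beside 40.2% of all tested miRNAs, and none in bone marrow. Their median difference was -4.17. By detection, 42 members (75% of those on the array) were found on every hypothalamus array and on no bone marrow array. They were 30.2% of all 139 miRNAs with that pattern, and they could hardly be called higher in bone marrow.

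The members fall into clusters along the chromosome. The cluster at chr12:109585789-109595388 (GRCm38.p6), within the span of the retrotransposon-derived gene Rtl1, gave 16 tested miRNAs of which 12 were higher in hypothalamus. The larger cluster at chr12:109709060-109747960 gave 39 tested miRNAs of which 33 were higher in hypothalamus. Neither held a miRNA that was called higher in bone marrow, which those undetected there could hardly be.

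miR-127-3p, which is antisense to Rtl1 and cleaves its transcript, stood at 2.95 and 3.49 after PBS at 0 and 8 Gy and at 3.35 and 2.87 after amifostine in hypothalamus. It was absent from the detected miRNAs of every bone marrow array, a difference of at least 438-fold. miR-434-3p, from the same cluster, was at least 347-fold higher and miR-382-5p, from the larger one, at least 203-fold higher.

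Only 4 listed members of the region were detected on all 8 arrays, with differences from -1.27 to 0.91. miR-494-3p stood at 6.21, 5.54, 6.82 and 6.36 in bone marrow and at 5.60, 5.15, 4.77 and 5.75 in hypothalamus, in the order PBS at 0 and 8 Gy and amifostine at 0 and 8 Gy. The tissues overlapped, and its difference of 0.91 ± 0.33 did not pass (limma adjusted p = 0.069). Without the pair of amifostine at 0 Gy it was 0.53 and passed (adjusted p = 0.0205), as did miR-370-3p, which was at -0.50 with all pairs (adjusted p = 0.0532) and at -0.65 without that pair (adjusted p = 0.0117). miR-134-5p differed by -0.67 and miR-770-3p by -1.27, and both were called, miR-134-5p only with all 4 pairs or without that of amifostine at 0 Gy (adjusted p of 0.0631 to 0.0826 without another pair). miR-370-3p, miR-134-5p and miR-770-3p turned to positive values under the 75th percentile over all miRNAs (0.92, 0.75 and 0.15), so their direction rests on the scaling.

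On the bone marrow side the largest single differences were of myeloid and erythroid miRNAs. Of 6 erythroid miRNAs tested, 5 were called higher in bone marrow, with a median of 5.20, and of 6 myeloid miRNAs 3 were called, with a median of 3.28. The share of all tested miRNAs called higher in bone marrow was 15.8%. No member of either list was called higher in hypothalamus. The 4 erythroid miRNAs and the 1 myeloid miRNA detected in bone marrow alone could hardly be.

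miR-223-3p, a regulator of granulocyte maturation encoded on chromosome X (hairpin chrX:96242817-96242926, GRCm38.p6), had the largest difference of all miRNAs detected on all 8 arrays. In bone marrow it stood at 5.75 and 6.26 after PBS at 0 and 8 Gy and at 5.05 and 5.94 after amifostine. In hypothalamus it stood at -3.88 and -3.70 after PBS and at -3.50 and -4.00 after amifostine. The difference was 9.52 ± 0.29 (limma adjusted p = 1.82e-05), and no condition brought the tissues near each other.

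miR-142 is made in all blood-forming lineages. Its 3p strand, miR-142-3p, stood at 2.54, 3.06, 2.64 and 2.81 in bone marrow and at -4.74, -5.10, -4.10 and -4.82 in hypothalamus, again in the order PBS at 0 and 8 Gy and amifostine at 0 and 8 Gy. The difference was 7.45 ± 0.26 (limma adjusted p = 2.42e-05), with narrow ranges in both tissues. Its 5p strand, miR-142-5p, was not detected in hypothalamus and was at least 54.3-fold higher in bone marrow, the highest bound among the 17 miRNAs detected on all bone marrow arrays alone.

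The other 3 tested myeloid members come from the locus of miR-23a, miR-27a and miR-24-2 on chromosome 8, and none passed. miR-23a-3p was at 0.50, miR-27a-3p at 0.79 and miR-24-2-5p at -0.09, which turned to 1.05 under the 75th percentile over all miRNAs. The paralogs miR-27b-3p and miR-23b-3p, from chromosome 13, differed by -1.05 and -1.57, toward hypothalamus. The value of miR-27b-3p turned to 0.37 under the 75th percentile over all miRNAs and was not called without the pair of PBS at 8 Gy (adjusted p = 0.0587).

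The locus at chr11:78073005-78073241 (GRCm38.p6) encodes miR-144 and miR-451a, which red cell precursors need for maturation and protection from oxidants. miR-451a stood at 6.71 and 8.03 in bone marrow after PBS at 0 and 8 Gy and at 6.41 and 8.20 after amifostine. In hypothalamus it stood at 0.96 and 1.09 after PBS and at 1.37 and 1.03 after amifostine. The tissues did not overlap, the bone marrow arrays of 8 Gy were the higher ones, and the difference was 6.22 ± 0.42 (limma adjusted p = 0.000225).

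miR-144-3p, from the same transcript, stood at -1.28 and 1.34 after PBS at 0 and 8 Gy and at -0.99 and 1.22 after amifostine in bone marrow. No hypothalamus array detected it, a difference of at least 51.4-fold. Both bone marrow arrays of 8 Gy lay above both of 0 Gy. miR-144-5p was at least 37.9-fold higher. The member that was not called, miR-3107-3p, was at 0.87 and was not detected in hypothalamus. miR-3107-5p, the erythroid miRNA also named miR-486b, stood at 1.49, 2.90, 1.0 and 2.99 in bone marrow and at -3.38, -2.88, -2.87 and -3.10 in hypothalamus, a difference of 5.15 ± 0.42 (limma adjusted p = 0.000428).

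Lymphoid miRNAs did not follow one direction. Of 7 tested, 2 were called higher in bone marrow and 3 in hypothalamus, beside 15.8% and 40.2% of all tested miRNAs, and the median was -0.93. miR-150-5p, of mature lymphocytes, stood at 0.09, -0.09, 0.17 and -0.25 in bone marrow and at -1.28, -0.60, -0.81 and -1.36 in hypothalamus. The ranges did not overlap but were close, and the difference of 1.0 ± 0.17 (limma adjusted p = 0.00718) was not called without scaling (0.35). miR-155-5p, of activated lymphocytes and macrophages, was higher in bone marrow by 3.05 ± 0.17 (limma adjusted p = 0.000124). Only 2 of 4 hypothalamus arrays detected it, so its difference may depend on the floor.

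The miR-181 family, which tunes T cell receptor signalling and is also made in neurons, went the other way. The difference was -1.84 for miR-181c-5p, -1.20 for miR-181d-5p and -0.98 for miR-181a-5p, and miR-181b-5p, at -0.93, did not pass. The call of miR-181a-5p was lost without any 1 of the pairs other than that of PBS at 0 Gy (adjusted p of 0.0933 to 0.107), and miR-181b-5p passed without that pair (-1.32, adjusted p = 0.0136). The values of miR-181a-5p and miR-181d-5p turned to 0.44 and 0.22 under the 75th percentile over all miRNAs, and the list's median to 0.49.

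In the inflammation list 3 of 4 tested miRNAs were higher in bone marrow, beside 15.8% of all tested miRNAs, with a median of 2.14. Among the 3 is miR-155-5p, which the lymphoid list counts as well. miR-21a-5p, induced in many stressed and activated cells, stood at 2.82, 3.34, 2.30 and 3.21 in bone marrow and at 0.26, 0.74, 1.0 and 0.51 in hypothalamus, a difference of 2.29 ± 0.28 (limma adjusted p = 0.00218). miR-146a-5p, a brake on Toll-like receptor signalling, was higher by 1.99 ± 0.15 (limma adjusted p = 0.000308). Its paralog miR-146b-5p, which differs at 2 of 22 positions, was at -0.09 and did not pass, and turned to 1.33 under the 75th percentile over all miRNAs, 0.91 after quantile normalization and 1.04 in the authors' deposited value table.

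**Figure D4:**
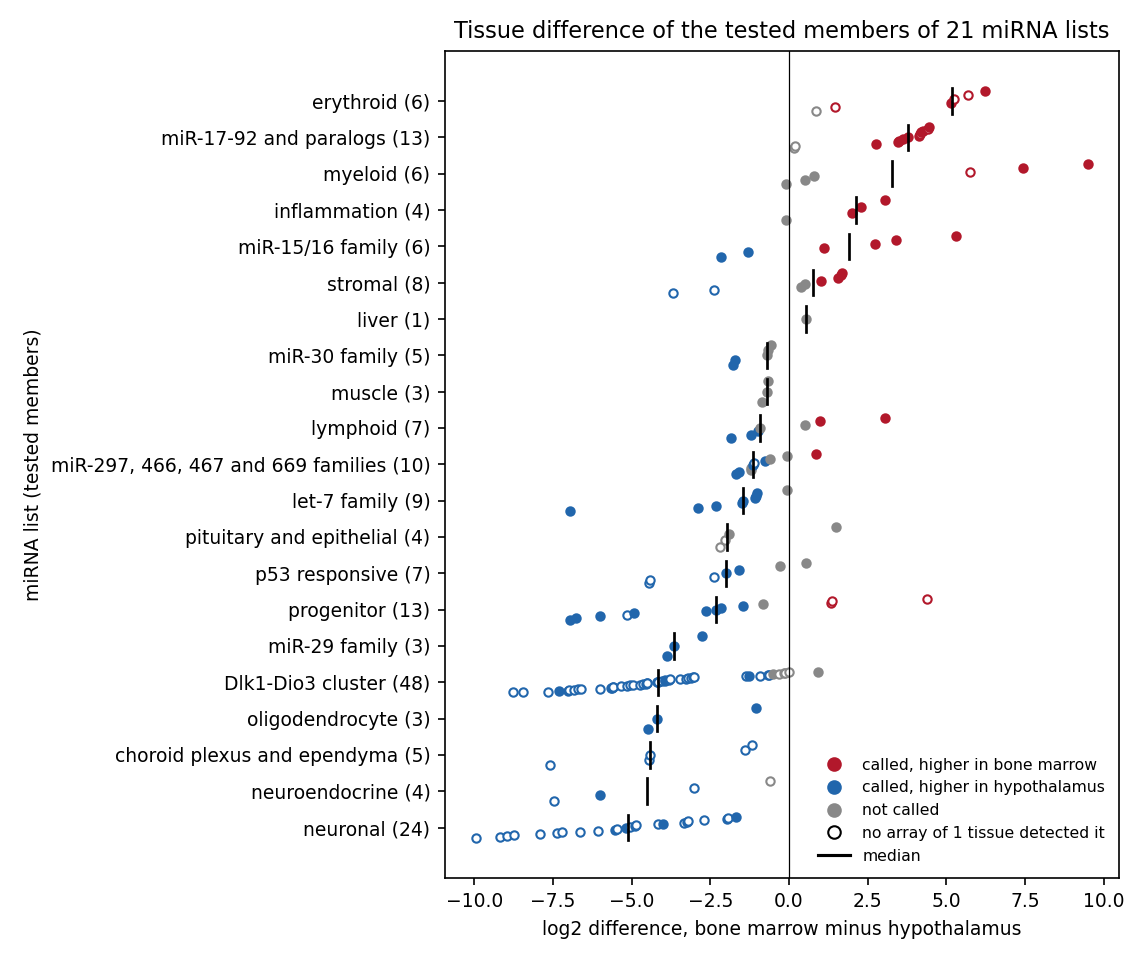
Difference in log2 level, bone marrow minus hypothalamus, of each tested member of 21 miRNA lists, ordered by their medians (black bars), with the number tested in parentheses. Red and blue points were called, grey points were not, and open points mark miRNAs that no array of one tissue detected, whose value is limited by the floor. All neuronal and choroid plexus members lie to the left of 0, and all erythroid and miR-17-92 members to the right.

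The miR-17-92 cluster and its paralogs drive proliferation of blood-forming and tumour cells. Of 13 tested members 11 were called higher in bone marrow and none in hypothalamus, beside 15.8% and 40.2% of all tested miRNAs. Their median was 3.79. The 4 detected in bone marrow alone could hardly be called higher in hypothalamus. The 2 not called (miR-18a-3p and miR-106b-3p, at 0.17 and 0.20) are passenger strands not detected in hypothalamus. All 5 mature strands with the seed AAAGUGC differed by a like amount, from 3.48 for miR-106b-5p to 4.27 for miR-20b-5p, although miR-17-5p turned to -1.61 with the scanner software's own totals. They come from 3 chromosomes: the cluster at chr14:115043671-115044506, that at chr5:138165321-138165818 within the span of the replication gene Mcm7, and that at chrX:52741838-52742192 (all GRCm38.p6).

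miR-20a-5p stood at 2.06, 1.97, 1.71 and 2.03 in bone marrow and at -2.42, -2.16, -1.93 and -2.54 in hypothalamus, a difference of 4.21 ± 0.19 (limma adjusted p = 6.15e-05). miR-25-3p, from the chromosome 5 cluster, stood at 2.32, 2.76, 1.83 and 2.83 in bone marrow and at -2.38, -1.74, -1.72 and -2.29 in hypothalamus, a difference of 4.47 ± 0.29 (limma adjusted p = 0.000184). Both were apart in every condition. miR-92a-3p, with the same seed as miR-25-3p, differed by 4.12. miR-18a-5p and miR-19a-3p were not detected in hypothalamus, with bounds of 21.4-fold and 18.0-fold.

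The near-identical 5p strands of these clusters may bind each other's probes, which was not measured, so their separate values are uncertain. miR-20a-5p and miR-20b-5p differ at 2 of 23 positions.

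The miR-15/16 family, which restrains cyclins and BCL2, was divided by locus. All 6 members were detected on all 8 arrays and all 6 were called, 4 higher in bone marrow and 2 higher in hypothalamus. Among all miRNAs so detected the shares were 23.5% and 25.6%. miR-15b-5p stood at 3.96, 4.42, 3.53 and 4.54 in bone marrow and at -1.52, -0.99, -0.88 and -1.46 in hypothalamus, a difference of 5.32 ± 0.29 (limma adjusted p = 0.000104). miR-16-5p differed by 3.42 ± 0.33, miR-15a-5p by 2.73 ± 0.30 and miR-322-5p by 1.12 ± 0.14, and the last was not called without scaling (0.48).

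miR-497-5p and miR-195a-5p have the same seed and lie together at chr11:70234717-70235135 (GRCm38.p6). miR-497-5p stood at -3.54, -3.01, -4.15 and -3.09 in bone marrow and at -1.52, -1.08, -1.0 and -1.52 in hypothalamus, a difference of -2.16 ± 0.29 (limma adjusted p = 0.00294). miR-195a-5p differed by -1.31 ± 0.27 (limma adjusted p = 0.0127), which turned to 0.10 under the 75th percentile over all miRNAs. The gap between the differences of miR-16-5p and miR-195a-5p, which differ at 2 of the 21 positions they share, was 4.73 on the log2 scale and does not depend on how an array is scaled as a whole.

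A like division separated miR-130a-3p from miR-130b-3p, which differ at 2 of 22 positions. miR-130b-3p, encoded on chromosome 16, stood at -0.37, -0.81, -0.78 and -0.80 in bone marrow and at -4.13, -3.89, -3.77 and -4.25 in hypothalamus, a difference of 3.32 ± 0.17 (limma adjusted p = 8.86e-05). miR-130a-3p, encoded on chromosome 2 and known from endothelial and megakaryocyte cells, stood at -1.92, -1.81, -2.39 and -1.87 in bone marrow and at 0.15, 0.18, 0.36 and -0.07 in hypothalamus, a difference of -2.15 ± 0.19 (limma adjusted p = 0.000623). Each was apart between the tissues in all 4 conditions, in opposite directions.

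The miR-26 pair was also called in both directions. miR-26a-5p differed by -1.60 and miR-26b-5p by 0.68 (limma adjusted p = 0.049), but the call of miR-26b-5p was lost when any of 3 of the 4 pairs was left out (adjusted p of 0.144 to 0.147) and its value was 0.03 without scaling. Among miRNAs with a RefSeq sequence here (438 of the 530 tested), 19 seed families had at least 2 members detected on all 8 arrays, with 59 members. miR-23b-3p, miR-30b-5p and miR-30d-5p, which have none here, are not in that count. In 12 of the 19 families all members had one sign, and in 3 (those of miR-15/16, miR-130 and miR-26) members were called in both directions. The 12 include families with members that were not called and lay near 0, such as let-7i-5p at -0.05 and miR-6394 at -0.04. Such signs depend on the scaling: let-7i-5p was at 1.37 under the 75th percentile over all miRNAs. The pair miR-378a-3p and miR-378d, and the pair miR-466f-3p and miR-466i-3p, are among the 12. Each is a pair of array entries matched here to the same locus, not to separate paralogs.

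**Figure D5:**
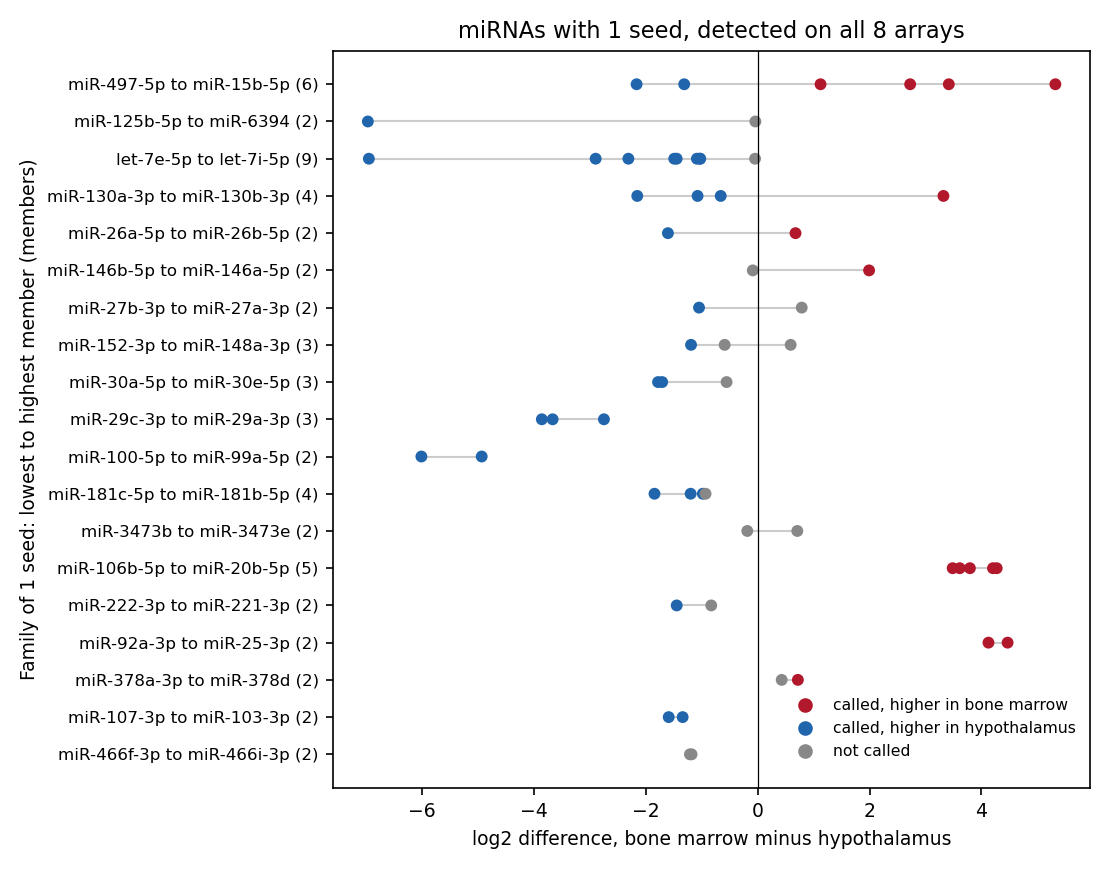
Difference in log2 level, bone marrow minus hypothalamus, of the members of 19 seed families, those with at least 2 members that have a RefSeq sequence here and were detected on all 8 arrays, each row a family named by its lowest and highest member. Red and blue points were called and grey points were not. The miR-15/16 family runs from -2.16 to 5.32, while the 5 members of the miR-17 family lie between 3.48 and 4.27.

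The let-7 family, which holds cells in a differentiated state, was lower in bone marrow by very unequal amounts. All 9 members were detected on all 8 arrays. Of these 9, 8 were called higher in hypothalamus and none in bone marrow, beside 25.6% and 23.5% of all miRNAs so detected. The median was -1.45. let-7e-5p stood at -3.44 and -3.18 in bone marrow after PBS at 0 and 8 Gy and at -3.98 and -3.57 after amifostine, against 3.18 and 3.80, and 3.56 and 3.09, in hypothalamus. The difference was -6.95 ± 0.20 (limma adjusted p = 1.67e-05), with no overlap.

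let-7a-5p, which differs from let-7e-5p at 1 of 22 positions, stood at 3.39, 3.56, 2.94 and 3.63 in bone marrow and at 4.61, 5.27, 5.07 and 4.54 in hypothalamus, a difference of -1.49 ± 0.24 (limma adjusted p = 0.00542). let-7i-5p was at -0.05 and did not pass. Under the 75th percentile over all miRNAs, let-7a-5p was at -0.07 and no longer called, and let-7i-5p was at 1.37. Probes for these paralogs may bind each other's target, which was not measured, and the gap between the differences of let-7e-5p and let-7a-5p was -5.46.

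let-7e is encoded at chr17:17830194-17830879 (GRCm38.p6), within the span of Spaca6, together with miR-99b and miR-125a. The 3 main strands of the locus had large differences in 1 direction. miR-125a-5p differed by -6.77 ± 0.21 (limma adjusted p = 1.94e-05) and was detected on 2 of 4 bone marrow arrays. miR-99b-5p was not detected in bone marrow and was at least 35.2-fold higher in hypothalamus.

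The paralogous loci of that cluster on chromosomes 9 and 16 gave miRNAs with the same direction. miR-125b-5p, which keeps blood stem cells from apoptosis and is also made in neurons and glia, stood at -1.73, -1.58, -2.35 and -1.81 in bone marrow and at 4.82, 5.41, 5.32 and 4.85 in hypothalamus. The difference was -6.97 ± 0.23 (limma adjusted p = 2.06e-05), the largest toward hypothalamus among miRNAs detected on all 8 arrays. miR-100-5p differed by -6.01 and miR-99a-5p by -4.93, and they differ from each other at 1 of 22 positions. With the scanner software's own totals in place of the probe signals miR-100-5p turned to 1.78: in bone marrow those totals were 1330 to 1700 intensity units, while its own probes summed to 4.43 to 6.95.

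Those miRNAs are often listed as ones of blood progenitors. In the progenitor list 9 of 13 were higher in hypothalamus and 3 in bone marrow, beside 40.2% and 15.8% of all tested miRNAs. The median was -2.31. The 3 in bone marrow were the miRNAs encoded in Hox clusters, miR-10a-5p, miR-10b-5p and miR-196b-5p. No hypothalamus array detected these 3, so they could hardly be called higher there. The same holds in reverse for miR-99b-5p, which no bone marrow array detected. miR-10a-5p stood at -0.98, -0.84, -1.97 and -1.04 in bone marrow and was not detected in hypothalamus, at least 21.1-fold higher in bone marrow. The bounds for miR-10b-5p and miR-196b-5p were 2.59-fold and 2.54-fold. miR-126-3p, of endothelium and blood stem cells, differed by -2.64 ± 0.24 (limma adjusted p = 0.000625).

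All 3 members of the miR-29 family, which represses collagens and DNA methyltransferases, were higher in hypothalamus. They were detected on all 8 arrays, and 25.6% of all miRNAs so detected were called in that direction. miR-29c-3p stood at -0.22, 0.17, -0.59 and 0.07 in bone marrow and at 3.55, 3.94, 3.94 and 3.43 in hypothalamus, a difference of -3.86 ± 0.22 (limma adjusted p = 0.000128). miR-29b-3p differed by -3.67 and miR-29a-3p by -2.75. In the miR-30 family, also detected on all 8 arrays, 2 of 5 were called higher in hypothalamus, beside the same 25.6%. The median was -0.68 and turned to 0.73 under the 75th percentile over all miRNAs.

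Of 7 tested miRNAs that p53 is known to induce, 5 were higher in hypothalamus and none in bone marrow. The shares of all tested miRNAs were 40.2% and 15.8%, and the list's median was -2.0. Of those 5, miR-34b-5p, miR-34c-5p and miR-145a-5p were not detected in bone marrow and belong to other lists here as well. Their values are set by the floor. miR-34a-5p, which p53 switches on and which limits cell division, stood at -2.30 and -0.27 in bone marrow after PBS at 0 and 8 Gy and at -2.77 and -0.36 after amifostine, against 0.10 and 0.87, and 0.70 and 0.64, in hypothalamus. Both bone marrow arrays of 8 Gy lay above both of 0 Gy, and both below the hypothalamus arrays. The difference was -2.40 and -1.14 after PBS at 0 and 8 Gy and -3.47 and -1.0 after amifostine, and over all 4 it was -2.0 ± 0.48 (limma adjusted p = 0.0222). The call was lost without the pair of PBS at 0 Gy (adjusted p = 0.0787) and under the 75th percentile over all miRNAs (-0.58), and whether the tissue difference changes with dose was not tested.

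Few other called miRNAs varied as much over the conditions. The SD of the 4 differences had a median of 0.35 over the 297 called miRNAs and a maximum of 1.4, that of miR-144-3p. A call itself favours a small SD, so these values do not describe the miRNAs that were not called. A tissue at the floor adds no spread. The differences of miR-451a were 5.75 and 6.94 after PBS at 0 and 8 Gy and 5.04 and 7.17 after amifostine, those of miR-3107-5p were 4.88 and 5.78, and 3.86 and 6.09, and those of miR-144-3p were 4.33 and 6.95, and 4.62 and 6.83. In these 3 erythroid miRNAs the difference was larger at 8 Gy than at 0 Gy with either pretreatment.

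The stromal list held 4 miRNAs higher in bone marrow and 2 higher in hypothalamus of 8 tested, beside 15.8% and 40.2% of all tested miRNAs. Its median was 0.78. miR-199a-3p, of mesenchymal cells, differed by 1.57 ± 0.26 and miR-140-3p, of cartilage, by 1.64 ± 0.31. miR-143-3p and miR-145a-5p, of smooth muscle, were not detected in bone marrow and were at least 12.8-fold and 5.26-fold higher in hypothalamus. They could hardly be called higher in bone marrow. Of 10 tested members of the rodent miR-297, miR-466, miR-467 and miR-669 families, 1 (miR-466i-5p, at 0.87) was higher in bone marrow and 5 were higher in hypothalamus, beside 15.8% and 40.2% of all tested miRNAs, with a median of -1.13 that turned to 0.25 under the 75th percentile over all miRNAs.

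The pituitary and epithelial list had no call among 4 tested miRNAs. miR-200a-3p, which holds cells in an epithelial state, stood at -4.44 and -5.07 in hypothalamus after PBS at 0 and 8 Gy and at -0.84 and -3.94 after amifostine, and no bone marrow array detected it. Its difference of -2.04 ± 0.77 did not pass (limma adjusted p = 0.0798), and without the pair of amifostine at 0 Gy it was -1.12 and passed (adjusted p = 0.0324). miR-429-3p, of the same family and cluster as miR-200a-3p, stood at -4.34, -4.59, -0.76 and -3.95 in hypothalamus and was at -2.18 with all pairs (adjusted p = 0.0601) and at -1.29 without that pair (adjusted p = 0.00564). The array of amifostine at 0 Gy was the high one in both. miR-200c-3p went the other way, at 1.49 with all pairs (adjusted p = 0.124) and at 2.32 without that pair (adjusted p = 0.0012). None of the 3 tested muscle miRNAs and not the 1 tested liver miRNA was called.

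Several miRNAs outside the lists also had large differences. miR-1949 stood at 1.84, 1.25, 1.34 and 0.93 in bone marrow and at -3.51, -2.95, -2.99 and -3.62 in hypothalamus, a difference of 4.61 ± 0.23 (limma adjusted p = 7.69e-05). miR-3096a-5p differed by 3.70. On the other side miR-326-3p differed by -3.77, miR-151-5p by -3.60 and miR-331-3p by -3.54. miR-503-5p and miR-450a-5p, neighbours on chromosome X, were detected in bone marrow alone, with bounds of 4.49-fold and 3.77-fold. At the other end, miR-709 was level between the tissues, at 3.07 to 3.64 in bone marrow and 2.97 to 3.54 in hypothalamus, a difference of 0.04 ± 0.16. miR-1895, miR-546, miR-711 and miR-6386 also differed by 0.04 or less in size, and the last lay close to the floor and turned to 1.02 under the 75th percentile over all miRNAs.

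Neighbouring miRNA genes were grouped where hairpins lie within 10 kb of the next on one strand. Of 39 such groups 4 had no call and 8 had 1 call, so that their calls could not differ in direction. Of the 27 with more calls, 17 had them only toward hypothalamus, 8 only toward bone marrow and 2 in both directions. Those 2 were the let-7e locus and a group within Clcn5 on chromosome X. In the first the call toward bone marrow was that of the minor strand miR-125a-3p (0.71, limma adjusted p = 0.0391), which was lost in 12 of 22 alternatives, among them without any 1 of the pairs other than that of amifostine at 8 Gy (adjusted p of 0.0733 to 0.135). Members of a group share a transcript or a neighbourhood, and a mature miRNA made from several loci (such as miR-16-5p, miR-19b-3p and miR-92a-3p) counts in each of its groups. A miRNA detected in bone marrow alone or in hypothalamus alone could hardly be called the other way. Agreement within a group is thus partly set by detection, as in the groups of the Dlk1-Dio3 region, miR-9 and miR-144. Over all tested miRNAs 15.8% were called toward bone marrow and 40.2% toward hypothalamus.

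The 2 arms of a hairpin come from the same transcript, and the ratio of their signals within an array does not depend on how the array is scaled as a whole. Of 17 hairpins with both arms detected on all 8 arrays, 9 had an arm ratio that differed between the tissues (52.9%; limma, Benjamini-Hochberg over the 17), 4 of them with a relative surplus of the 5p arm in bone marrow and 5 in hypothalamus. The count was 5 after quantile normalization, and 4 and 5 without the pairs of amifostine and PBS at 8 Gy.

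miR-149 had the largest shift toward hypothalamus. Its 5p arm differed by -3.24 between the tissues and its 3p arm by 0.27, so that the 5p to 3p difference was different by -3.50 ± 0.27 (limma adjusted p = 0.00057). In miR-1839 the arms differed by -2.69 and 0.40, a shift of -3.09 ± 0.13 (limma adjusted p = 6.89e-05). miR-324 shifted by -1.79, miR-22 by -0.85 and miR-140 by -0.61. The shift of miR-22 turned to 0.75 with the normexp background and to 1.79 with the scanner software's totals, and the calls of miR-22 and miR-140 were lost in 5 and 8 of 22 alternatives.

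In the other direction miR-338 shifted by 3.13 ± 0.27 (limma adjusted p = 0.000648): its 3p arm differed by -4.19 and its 5p arm by -1.06. The 5p arm was at the floor on all 4 bone marrow arrays, so both its difference and the shift depend on the floor. miR-466i shifted by 2.05 ± 0.52, miR-30e by 1.04 ± 0.22 and miR-17 by 0.85 ± 0.17. The array entries miR-466i-3p and miR-466f-3p, at -1.18 and -1.21, are matched here to the same locus. The 3p signal of miR-466i may thus not come from its hairpin alone, which was not measured. Of 22 alternatives the call was lost in 6 for miR-466i, in 8 for miR-30e and in 9 for miR-17, whose shift was -0.01 with the scanner software's totals. Both arms of miR-17 were higher in bone marrow, by 3.61 for the 5p and 2.76 for the 3p arm.

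The PBS arrays of both tissues shared a slide, and the amifostine arrays of each tissue lay on a slide of their own, so tissue and slide cannot be told apart in the amifostine pairs. Within the slide of the PBS arrays 234 miRNAs were called, 221 of them among the 297. That all 297 kept their direction there adds nothing, since each had the same sign in all 4 conditions. With slide as a term 232 were called, 224 of them among the 297. The term takes up the tissue difference of the amifostine pairs. The estimate is thus again that of the PBS pairs and not a second check. The calls of miR-34a-5p, miR-150-5p, miR-181a-5p, miR-181d-5p, miR-27b-3p and miR-134-5p were lost in both fits, and miR-195a-5p, let-7a-5p and miR-26b-5p were not called with slide as a term.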

How the data were processed

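Agilent mouse miRNA arrays (1 colour) were used. Per the file headers, Feature Extraction 10.7.1.1 read the scans and the design refers to mm9. The authors deposited scanner intensity values and a table of log2 values whose scaling and centring are not stated. Its column medians were -3.32 to -2.77, and every column had a 75th percentile of 3.43. That deposit served as an alternative.

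Processed intensity was averaged over the spots of a probe without outlier spots (4.42 to 5.22% of spots) and over probes. Each array was scaled to its own 75th percentile, taken across those 277 miRNAs that all 8 arrays detected. A floor of -5.61 on the log2 scale was set at the typical 5th percentile of detected signals (median of the 8 arrays), and 21.1% of tested values lay on it. The 530 miRNAs detected on at least 4 arrays were fitted in limma 3.58.1 (R 4.3.3) with tissue and condition as terms and 3 residual degrees of freedom, with Benjamini-Hochberg adjustment at 0.05. The 5p and 3p arms were compared as the difference of their log2 values within an array. A lower bound in folds sets a tissue's mean against the floor in the other tissue.

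Each condition had 1 pool per tissue, so p-values measure the spread of the difference over 4 conditions. The number of arrays limits the precision. In simulated data 72% of log2 changes of 1 and 96% of those of 2 were recovered, and 1.82% of unchanged miRNAs were called.

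The members and lists were chosen with earlier results of these data known. The miRNAs named are the 12 highest and 12 lowest called differences among those detected on all 8 arrays, the 8 highest bounds in each direction, list members, the 5 highest and lowest called arm differences and the 5 smallest differences among miRNAs detected on all 8 arrays. The paralogs miR-130b-3p, miR-26a-5p, miR-26b-5p, miR-23b-3p and miR-27b-3p, and miR-125a-3p, were named after their values were seen. Families share bases 2 to 8, and clusters join hairpins within 10 kb. RefSeq (GRCm38.p6) gave sequences for 1042 of the 1247 miRNAs and the spans of neighbouring genes, with no exons. The other 6 arrays of the series are not used here. Alternatives changed the scaling, background, floor, detection filter, spot summary, block, slide term, dose or pretreatment subset, or left out 1 pair, and a reference of 25 rank-stable miRNAs was added after seeing the data.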

Additional observations from a re-analysis of the deposited data

Results flagged for a closer look

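In 9 of 169 groups of 4 arrays checked, the highest or the lowest array lay further from the others than Dixon's 95% limit allows, and chance alone does so in about 1 in 20 groups. The 4 arrays of a tissue differ in condition, so such an array may stand apart through its treatment, its animals or its hybridization, which was not tested. On the hypothalamus array of amifostine at 0 Gy, miR-429-3p read -0.76 (others -4.59 to -3.95), miR-19b-3p -1.47 (others -2.13 to -2.02) and miR-34b-5p -0.81 (others -1.35 to -1.27). On the bone marrow array of amifostine at 0 Gy, miR-10b-5p read -5.02 (others -4.06 to -3.89), miR-1839-5p -3.72 (others -3.19 to -3.13) and miR-199a-3p -3.03 (others -2.38 to -2.30). On the bone marrow array of PBS at 0 Gy, miR-130b-3p read -0.37 (others -0.81 to -0.78) and miR-196b-5p -3.73 (others -4.46 to -4.42). On the hypothalamus array of amifostine at 8 Gy, miR-7b-5p read 1.55 (others 1.93 to 1.98).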

How the results depend on the processing

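The count of 297 called miRNAs was between 217 and 382 under all alternatives but 2: it was 166 with the amifostine arrays alone (limma, 1 residual degree of freedom) and 160 where only the 277 miRNAs detected on all 8 arrays were tested. Without 1 pair of conditions it was 248 to 316. The count of 9 arm differences was 3 with the amifostine arrays alone, 5 after quantile normalization, 149 without the detection filter (422 hairpins tested), 0 with the 0 Gy arrays alone (limma, 4 at an unadjusted p under 0.05) and 4 to 12 without 1 pair. The fit is paired by condition, and without that block 334 miRNAs were called.

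Under the 75th percentile over all miRNAs these turned positive: miR-6386 (1.02), miR-181a-5p (0.44), miR-181d-5p (0.22), miR-146b-5p (1.33), let-7i-5p (1.37), miR-195a-5p (0.10), miR-27b-3p (0.37), miR-370-3p (0.92), miR-134-5p (0.75), miR-770-3p (0.15), miR-24-2-5p (1.05) and the medians of the lymphoid (0.49), miR-30 (0.73), muscle (0.72) and miR-297, miR-466, miR-467 and miR-669 (0.25) lists. After quantile normalization miR-6386 (1.07), miR-146b-5p (0.91), let-7i-5p (0.65), miR-134-5p (0.66), miR-770-3p (0.05), miR-24-2-5p (0.91) and the miR-30 (0.06), muscle (0.51) and miR-297, miR-466, miR-467 and miR-669 (0.08) medians did. In the authors' deposited value table miR-6386 (4.87), miR-146b-5p (1.04), let-7i-5p (0.59), miR-134-5p (0.81) and the miR-30 (0.04) and muscle (0.62) medians did. With normexp miR-134-5p (0.01) and the arm shift of miR-22 (0.75) turned, and without scaling the liver median did (-0.11). With the scanner software's totals miR-100-5p (1.78), miR-17-5p (-1.61) and the arm shifts of miR-17 (-0.01) and miR-22 (1.79) turned. A miRNA not called in the main fit is listed here only where the alternative called it. On every array, 67 to 151 detected miRNAs had a software total over 1.5-fold off the sum of their own probes.

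Scaling sets the zero of every difference. Values at the floor have no order, so a miRNA found in 1 tissue has only a bound, and 1 pool per condition leaves dose and drug effects on the tissue difference untested.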
